A study of Mus musculus with 64 samples.

Results

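The replication-dependent histone cluster genes were followed through the RNA-seq of a study of MORC1, a nuclear ATPase of the male germ line. They were taken as every gene in the deposited tables whose symbol began with Hist1h, Hist2h, Hist3h or Hist4h, which gave 63 of the 26385 genes listed. The 63 members comprised 6 linker histone H1 genes, 18 H2A genes, 16 H2B genes, 11 H3 genes and 12 H4 genes. Hist3h2bb-ps, counted with H2B, has the suffix of a pseudogene. On the mouse build mm9, 51 members (Hist1) lay on chromosome 13, 9 (Hist2) on chromosome 3 and 3 (Hist3) on chromosome 11, and no symbol began with Hist4h. Hist2h2ab, Hist1h2br and Hist1h2bq were at 0 reads throughout the 47 RNA-seq libraries. The rule used symbols and no measured value, although it was set with earlier results of these data known.

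Most libraries, with 1 mouse each, came from male mice of the Morc1 tg line, in which a transgene insertion removes exons 2–4 and which was kept on the FVB/N background. For the sorts from E16.5 to P2.5 this line was crossed to Oct4-IRES-eGfp reporter mice of mixed background. Heterozygotes, labelled Morc1 het, were the controls and homozygotes were labelled Morc1 KO. Sorted germ cells gave 20 libraries: 2 het and 2 KO at E16.5, 2 het and 2 KO at E18.5, 3 het and 2 KO at P2.5, and 4 het and 3 KO at P10.5, where E is the embryonic day and P the day after birth. Cells from E16.5 to P2.5 were sorted by the eGFP of an Oct4-IRES-eGfp reporter and cells at P10.5 by low side scatter, high EPCAM and absence of MHC class I, so the sort changed with age. Their total RNA was depleted of ribosomal RNA (Ovation Human FFPE kit). Whole testis gave 27 libraries from polyA RNA (TruSeq V2 kit): Morc1 at P10.5 (1 WT, 2 het and 3 KO, plus 1 WT and 1 het labelled preliminary), Morc1 at P14.5 (3 het, 3 KO), Dnmt3l at P10.5 (3 WT, 3 het, 3 KO) and Miwi2 at P10.5 (2 het, 2 KO). Dnmt3l encodes a cofactor of de novo DNA methylation, and Miwi2 (listed as Piwil4) a PIWI protein of the piRNA pathway. The alleles and strain backgrounds of those lines were not given in the sources used here. Kit, RNA fraction and cell population changed together between sorted cells and testis and cannot be told apart.

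Replication-dependent histone genes supply the core and linker histones that package newly copied DNA. They have no introns in most cases, are transcribed mainly in S phase, and their mRNAs end in a conserved stem-loop, bound by SLBP, in place of a poly(A) tail. Several members are germ line forms that enter the chromatin of spermatogonia and spermatocytes: Hist1h2aa and Hist1h2ba encode the testis variants TH2A and TH2B, and Hist1h1t encodes the testis linker histone H1t.

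The stem-loop sequence is shown because it defines this kind of mRNA and because its presence bears on what a polyA kit can recover. The pattern of 16 letters, GG, any 3, TT, any 1, T, any 1, A, any 3 and CC in that order, with at most 1 mispair in the stem of 6 pairs, was searched for on the coding strand within 150 bases after the annotated stop codon. It was found in 53 of the 60 members whose gene model had a stop codon (88.3%), 21 to 58 bases after the stop (median 31). The capitals mark the paired stem and the lower case letters the loop.
H1, H2A, H2B and H3 form, 31 members, such as Hist1h2aa and Hist1h1a: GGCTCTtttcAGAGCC
form of 8 members, among them Hist1h2ba and Hist1h1t: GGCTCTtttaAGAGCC
H4 form, 7 members, such as Hist1h4d and Hist1h4c: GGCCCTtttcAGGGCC
form of the H4 genes Hist1h4b and Hist1h4j: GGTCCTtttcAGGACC
The remaining 5 members held 4 other forms that differed from these in the loop. No match was found for Hist1h2al, Hist1h2an, Hist1h2bp, Hist1h2bq, Hist1h2br, Hist2h2bb and Hist2h2be. In 43 of the 53 members the element lay between the annotated start and end of the gene, introns included. For Hist1h2aa (chr13:24026760-24026775) and Hist1h2ba (chr13:24025599-24025614) it lay beyond the annotated end.

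Many members are near copies of one another, and the authors counted uniquely aligned reads only. Of all 50-base windows in a member's exons, a median of 34.0% differed by 3 or more bases from every other member. The median was 94.5% for the H1 genes but 28.3% for H2A, 33.6% for H2B, 36.6% for H3 and 33.8% for H4, and 7 members had no such window. Levels of near-identical core histone genes are therefore uncertain as a split between copies, and RPKM (reads scaled to exon length and library size) is not corrected for this. Hist1h4k and Hist1h4m had no window that differed in this way, yet held 833 and 3343 reads in the P10.5 het germ cells. The window share thus does not show which reads the deposited counts kept. It was 79.5% for Hist1h2aa and 51.2% for Hist1h2ba. Reads of Hist1h2ac and Hist3h2a are also uncertain because 5S_rRNA and Trim17, respectively, overlap them on the same strand, and those of Hist1h4b because 4930558J22Rik overlaps it on the other.

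In 10 pairs, members faced away from each other across less than 1 kb. The sequence between Hist1h2ba (minus strand) and Hist1h2aa (plus strand) is shown because both genes rose with age and both fell in Morc1 KO germ cells at P10.5. The stretch is mm9 chr13:24026094-24026299, plus strand, within the 305 bases that separate the 2 gene models. Capitals mark 2 TATAAA boxes (1 for each direction), 4 CCAAT boxes and 1 copy of the octamer ATTTGCAT on the minus strand.
Hist1h2ba and Hist1h2aa intergenic sequence: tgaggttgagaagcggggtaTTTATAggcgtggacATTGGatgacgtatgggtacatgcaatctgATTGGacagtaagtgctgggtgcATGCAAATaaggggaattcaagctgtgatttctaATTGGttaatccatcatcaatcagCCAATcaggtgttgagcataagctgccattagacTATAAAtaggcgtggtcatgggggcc
Over windows from 250 bases before to 50 after each gene start, both strands searched and the motifs sharing no letters here, CCAAT occurred in 84.1% of the 63 members and in 38.4% of 26343 promoters. TATAAA occurred in 57.1% against 14.8%. The octamer occurred in 7 of 18 H2A and 8 of 16 H2B members and in no H1, H3 or H4 member, against 1.99% of promoters. CCAAT was found in 4 of 12 H4 members. These are matches of letters, and promoters of a divergent pair share sequence.

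Sorted libraries held 2413679 to 14918478 reads on genes and testis libraries 22509570 to 42137954. Morc1, counted over its whole gene, was lower in every KO group than in its controls without overlap, for example 2.06–2.41 against 6.28–10.2 RPKM in P10.5 testis and 4.36–5.58 against 8.15–11.1 in P10.5 germ cells. Dnmt3l stood at 0.0371–0.0464 RPKM in its KO and at 0.374–1.02 in its controls. Piwil4 went against its label, with 10.7 and 11.6 RPKM in the libraries labelled Miwi2 KO and 6.65 and 7.01 in the het, although reads outside a deleted part check nothing. Of the cell type labels, the germ cell marker Ddx4 was at 48.1–99.3 RPKM in all 11 het sorted libraries, and the summed level of 7 Sertoli markers was 28.3–118 RPKM there against 3028–3326 in P10.5 Morc1 control testis.

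Histone cluster reads were higher in the postnatal than in the fetal germ cells. In Morc1 het germ cells they took 435 and 423 CPM (counts scaled to the library's reads on genes) at E16.5 and 594 and 442 at E18.5. They took 1548, 1663 and 2161 at P2.5, and 3691, 2735, 3334 and 3296 at P10.5. The E16.5 and E18.5 libraries lay close together, and no library of one postnatal age overlapped another age. Summed RPKM was 5.85-fold higher at P10.5 than at E16.5, and summed CPM 7.61-fold higher. All 27 testis libraries held between 38.3 and 62.6 CPM.

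**Figure D1:**
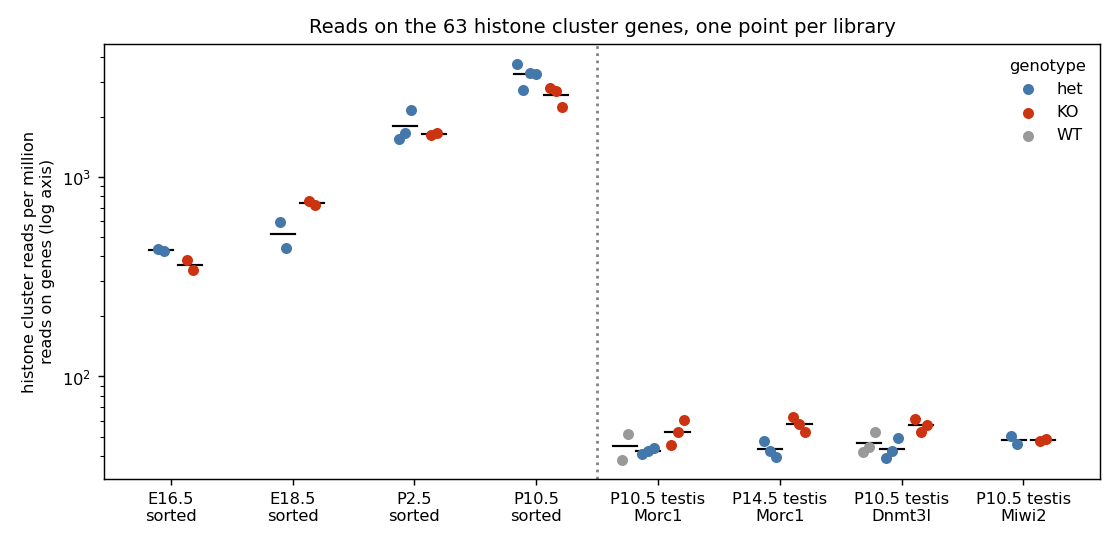
Summed histone cluster CPM (log axis) in each of the 47 libraries, by stage and preparation, coloured by genotype, with a bar at each group mean. Sorted germ cells rise from 342–435 at E16.5 to 2231–3691 at P10.5, and whole testis stays between 38.3 and 62.6.

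A few members carried a large share of the signal, and the leading ones changed with age. By mean RPKM in het germ cells, the first 5 members held 69.9% of the sum at E16.5, 67.1% at E18.5, 49.3% at P2.5 and 64.1% at P10.5. At E16.5 the first was Hist1h4d, an H4 gene, and H4 made up 56.2% of the sum. At P10.5 the first 4 were Hist1h2aa, Hist1h2ak (H2A), Hist1h1a (linker histone H1.1) and Hist1h2ba, and H2A made up 41.7%, H4 21.6%, H1 16.3%, H2B 15.3% and H3 5.17%. These shares depended on the scale. By mean CPM, H1 was above H4 at P10.5 (858 and 579.5 of 3264), and at E16.5 H4 was at 198 of 429. Neither scale corrects for unique windows, which differed between classes. Of 52 members that reached 1 RPKM at some stage, 24 were highest at P2.5 and 24 at P10.5, against 1 at E16.5 and 3 at E18.5. Hist1h2bb, Hist1h3h and Hist1h4m, also among the 3 most abundant of their classes, were at means of 87.2, 32.5 and 127 RPKM at P10.5. Partners of divergent pairs were compared by mean RPKM at P10.5. Hist1h2ah stood at 25.8 and Hist1h2bk at 11.5, with no overlap between libraries, so that the H2A gene was the higher. Likewise Hist1h2aa, at 495.7 to 698.9, lay above Hist1h2ba, at 240.1 to 328.9. Hist2h2ac, at a mean of 4.44, lay above Hist2h2be, at 0.0210. In other pairs the H2B member was the higher, also without overlap. Hist1h2bg was at 12.25 to 22.01 and Hist1h2ae at 1.41 to 4.44, and Hist3h2bb-ps at a mean of 16.9 and Hist3h2a at 0.172. Hist3h2bb-ps, with a pseudogene suffix, has no annotated stop codon and 465 exon bases. Hist3h2a has 1990 and is overlapped by Trim17. Hist1h2bc was at a mean of 6.40 and Hist1h2ac at 1.55. Their gene models have 736 and 2482 exon bases, however, and their reads were closer, at 313 and 249. Hist1h2ag and Hist1h2bj, at 31.5 and 12.96, overlapped, as did Hist1h2an and Hist1h2bp, at 4.03 and 4.68, and Hist1h2ad and Hist1h2bf, at 3.11 and 1.88. The pair of an H3 and an H2B gene, Hist1h3f and Hist1h2bh, stood at 2.85 and 0.467.

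**Figure D2:**
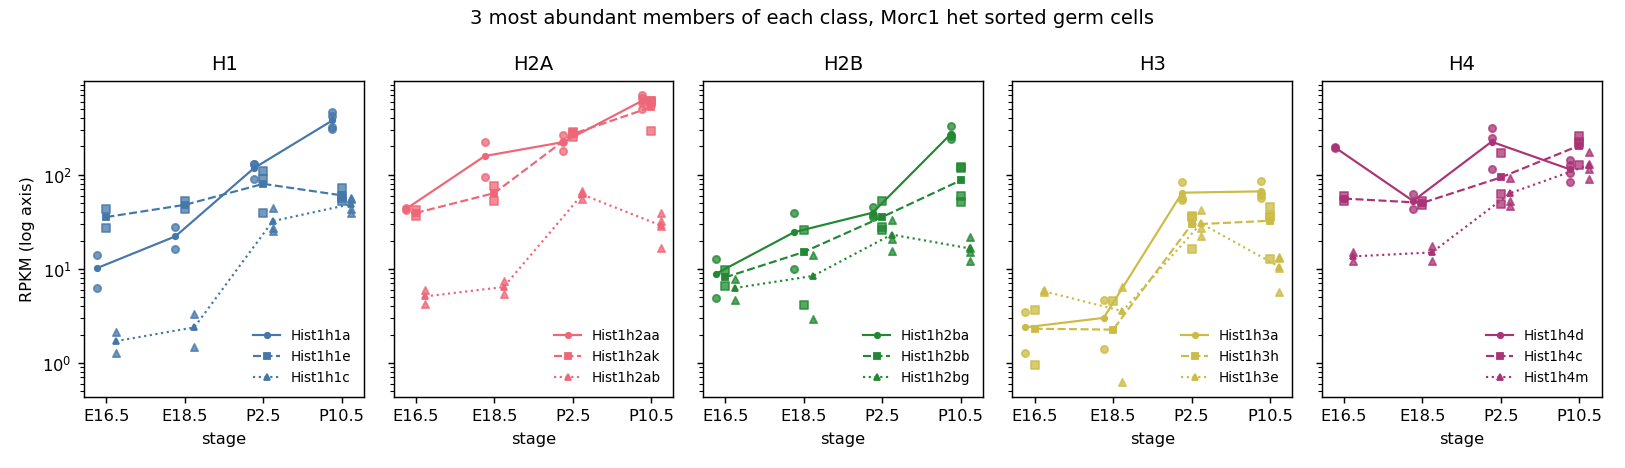
RPKM (log axis) of the 3 most abundant members of each histone class in the Morc1 het sorted libraries of the 4 stages, 1 point per library, with lines through the stage means. Libraries at 0 have no point. Hist1h1a, Hist1h2aa, Hist1h2ak and Hist1h2ba climb through to P10.5, whereas the H3 members rise between E18.5 and P2.5 and Hist1h4d dips at E18.5.

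The first comparison asked what changed while germ cells were in mitotic arrest, from E16.5 to E18.5. Of the 63 members, 51 passed the filter on low counts in the fit over all stages. By edgeR's quasi-likelihood test with Benjamini-Hochberg adjustment over all genes, 4 were higher at E18.5 and 6 lower, shares close to those of all genes tested, of which 8.13% were higher and 1778 of 16890 lower. The median member change was -0.13 on the log2 scale, against -0.07 for all genes, and 0.12 over the 49 members left when those with no read at E18.5 were set at their bound and 2 of them, Hist1h2af and Hist2h2ac, were left out because no bound could be given. Hist1h2aa stood at 44.6 and 42.6 RPKM at E16.5 and at 221 and 95.9 at E18.5. Both later libraries were higher, by 1.84 ± 0.25 (SE) on the log2 scale (adjusted p = 9.69e-05). Hist1h4d went the other way, from 194 and 199 RPKM to 62.2 and 43.3, and fell by 1.90 ± 0.33 (adjusted p = 0.000651).

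Hist1h3b and Hist1h3c (H3) and Hist1h2ad (H2A) had 20, 31 and 39 reads at E16.5 and none at E18.5, which makes them at least 1.94-, 3.32- and 3.96-fold lower, taking 3 reads over the E18.5 group as the floor. Hist1h4k fell by 1.65 ± 0.51 and Hist1h2ah by 2.73 ± 0.88. No window of Hist1h4k differed by 3 or more bases from every other member. Hist1h1a and Hist2h4 were higher by 1.13 ± 0.30 and 1.73 ± 0.56, and Hist1h2ba by 1.44 ± 0.41 with overlapping libraries. Each stage had 2 libraries. Without E16.5 het replicate 1 there were 5 calls, and without E16.5 het replicate 2 there were 6. The calls on Hist1h2aa, Hist1h4d and Hist1h3c held without each library in turn, whereas Hist1h2ad lost its call without any of the 4 (adjusted p 0.0546 to 0.0795). Hist1h3b lost it without any but E16.5 het replicate 1 (up to 0.186), and Hist1h2ah without any but E18.5 het replicate 1 (up to 0.237). Hist1h1a lost it without replicate 1 of either stage (0.125 and 0.122), and Hist2h4 without E16.5 het replicate 2 or E18.5 het replicate 1 (0.295 and 0.358). Over the 4 omissions the change of Hist2h4 ran from 0.92 to 2.45 and that of Hist1h2ah from -7.36 to -1.78. Beside this, 7 of 14 mitosis genes and 9 of 25 S phase genes were lower at E18.5 and 2 S phase genes higher. Slbp, which encodes the stem-loop binding protein, was higher (19.3 RPKM to 38.7, 1.04 ± 0.17, adjusted p = 0.000553). The calls on the other genes for histone mRNA transcription and 3′ end processing are not given for this step, so Slbp does not stand for them.

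The largest step came between E18.5 and P2.5. Of the same 51 members, 29 were higher at P2.5 and 0 lower, while 18.1% of all genes tested were higher and 21% lower. The median member change was 2.24 on the log2 scale against -0.07 for all genes. The calls spanned every class: 3 of 6 tested H1 genes, 9 of 13 H2A, 4 of 12 H2B, 6 of 10 H3 and 7 of 10 H4. Leaving out each library in turn gave 29 to 37 calls, of which 1 was lower at P2.5 without E18.5 het replicate 2 and 1 without P2.5 het replicate 3.

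Among the H3 genes, whose median change was 3.20 (3.61 for H2A and 2.22 for H4), several went from no read to clear levels. Hist1h3c had no read in the 2 E18.5 libraries and stood at 29.3, 23.2 and 23.6 RPKM at P2.5, at least 70.1-fold higher. Hist1h3b, also without a read at E18.5, was at 8.26, 11.6 and 22.4 RPKM, at least 37.5-fold higher. Hist1h3a went from 1.41 and 4.62 RPKM to 83.4, 56.5 and 53.7 (4.16 ± 0.47, adjusted p = 6.24e-06). All P2.5 libraries of these genes lay above all E18.5 libraries. The other tested members with no read at E18.5 were at least 25.7-fold (Hist1h4j), 24.7-fold (Hist1h3g), 18.9-fold (Hist1h2ad), 16.7-fold (Hist2h2ac), 12.2-fold (Hist1h2af) and 8.32-fold (Hist1h2bk) higher.

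Members already present at E18.5 rose as well. Hist1h1c (H1.2) went from 3.28 and 1.495 RPKM to 26.9, 25.4 and 44.2 (3.59 ± 0.32, adjusted p = 7.11e-07). Hist1h2ak went from 75.5 and 52.4 RPKM to 281, 252 and 283 (1.92 ± 0.25, adjusted p = 3.13e-05), and Hist1h4d returned to 115, 244 and 315 (1.92 ± 0.31, adjusted p = 0.000187). The germ line members did not pass the test at this step, Hist1h1t with a change of 0.46 ± 0.66. Genes of replication and division moved in the same interval: 21 of 25 S phase genes were higher and 1 lower (median 1.91), 14 of 14 mitosis genes were higher (median 2.93), and 5 of 9 histone chaperones were higher, among them Asf1b, Chaf1a and Nasp. Of 15 genes for histone mRNA transcription and 3′ end processing, 8 were higher and 1 lower, and Slbp rose again to 86.0 RPKM (0.95 ± 0.16, adjusted p = 0.000288). Of 12 tested replacement and variant histones, whose mRNAs are mostly polyadenylated, 5 were higher and 0 lower. The 5 stromal markers summed to 17.1–21.3 RPKM at E18.5 and 5.24–11.1 at P2.5. The Sertoli marker Sox9 was at 6.16–7.94 RPKM at E16.5, 16.3–17.8 at E18.5 and 2.64–3.66 at P2.5. The other Sertoli markers are not given for this step, so Sox9 does not stand for them. The part of these markers in the result was not tested.

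Between P2.5 and P10.5 the change was less general, and the 3 germ line members were among those that rose. Of the 51 members tested, 14 were higher at P10.5 and 5 lower, against 13.4% and 14.2% of all genes (median 0.20, all genes 0.02). Leaving out each library of these 2 ages in turn gave 13 to 15 calls in place of 19. Hist1h2ba was at 37.8, 35.4 and 45.5 RPKM at P2.5 and at 329, 240, 261 and 266 at P10.5, higher by 3.07 ± 0.29 (adjusted p = 2.41e-06). Hist1h2aa went from 180, 224 and 265 RPKM to 699, 496, 580 and 664 (1.73 ± 0.19, adjusted p = 8.12e-06). Hist1h1t went from 1.71, 1.73 and 2.35 to 9.53, 6.12, 7.60 and 6.20 (2.20 ± 0.52, adjusted p = 0.00538). For these 3 the ages did not overlap.

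Hist3h2ba, an H2B gene of the Hist3 cluster, was at 0, 3.33 and 1.80 RPKM and then at 33.9, 34.2, 30.6 and 29.9, the largest fitted rise (4.32 ± 0.80, adjusted p = 0.000827, and 5.10 without P2.5 het replicate 2). Hist1h1a rose from 131, 91.0 and 131 RPKM to 461, 419, 310 and 324 (1.97 ± 0.20), and Hist1h2ak from a mean of 272 to 524 RPKM (1.23 ± 0.20). No H3 gene was called higher. Hist1h2an, Hist1h3e, Hist2h4, Hist1h2ab and Hist1h4d were called lower, with log2 changes from -2.25 to -0.70, and the calls on Hist1h3e, Hist2h4 and Hist1h2ab were each lost without most single libraries (adjusted p up to 0.169, 0.143 and 0.0967). The call on Hist1h2an was lost without P2.5 het replicate 3 and without P10.5 het replicate 1 or 2 (up to 0.0988). Most single omissions also ended that on Hist1h2bk, higher by 1.78 ± 0.61 (adjusted p up to 0.143). In the same step 1 of 25 S phase genes was higher and 3 lower, and 6 of 9 early meiosis genes were higher and 1 lower. Of 5 markers each, 4 of undifferentiated spermatogonia and 4 of germ cells were lower, and of differentiating spermatogonia 3 were higher and 1 lower. Of 7 Sertoli markers, 4 were higher, their sum going from 29.0–33.4 to 69.2–118 RPKM. The Leydig marker Cyp11a1 was at 0 in all 4 P10.5 het libraries. The sort changed at this step too, and with it the cross to the mixed-background reporter line used up to P2.5, so neither can be told apart from age.

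The next comparisons asked what loss of Morc1 did to these genes in germ cells. At E16.5, 44 members were tested and 0 called, where 0.385% of all genes were higher and 0.0361% lower. By unadjusted p under 0.05, 4 members stood out, and DESeq2 called 0. Without het replicate 2, or without KO replicate 1, there was 1 call. At P2.5, 49 members were tested and 0 called (2 by unadjusted p, 0 by DESeq2, with 0.0416% of all genes higher and 0.00694% lower). Each had only 2 KO libraries.

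At E18.5, 1 of 33 members tested was higher in KO, where 6 of 14422 genes (0.0416%) were higher and 0 lower. This was Hist1h2bc, an H2B gene at mm9 chr13:23776068-23784357 whose model has 2 exons, 736 exon bases and a stem-loop between the exons. It stood at 11.5 and 13.8 RPKM in het and at 133 and 133 in KO, a log2 difference of 3.498 ± 0.32 (adjusted p = 0.00964). The 2 KO libraries lay within 1 RPKM of each other and far above every other sorted library. Without KO replicate 1 the difference was 3.63 with adjusted p = 0.0588, and without KO replicate 2 it was 3.36 with adjusted p = 0.1595, while without het replicate 1 there were 2 members called. At E16.5 the KO libraries also lay above the het libraries but the difference missed the threshold: Hist1h2bc was at 4.94 and 5.83 RPKM in het and 13.1 and 9.67 in KO (1.00 ± 0.31, adjusted p = 0.234). KO and het overlapped at P2.5 and P10.5. The divergent partner of Hist1h2bc, Hist1h2ac, was at 1.21 and 0 RPKM in het and 0.177 and 1.12 in KO at E18.5. No gene of the 17 lists of cell cycle, histone handling and cell type markers was called at E18.5.

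The histone sum stood at 385 and 342 CPM in KO at E16.5, below both het libraries, and at 1625 and 1670 at P2.5, within the het range. At E18.5 it stood at 756 and 721, above both het libraries, a difference that rests largely on Hist1h2bc. That member had 446 and 594 of the 2041 and 2081 histone reads in KO, against 56 and 78 of 2379 and 1724 in het. At P10.5 the histone sum was at 2782, 2685 and 2231 in KO against 2735 to 3691 in het, with overlap at 1 het library. Of 50 members tested, 5 were higher and 6 lower, against 6.43% and 5.79% of all genes, and the median change was -0.13 (all genes 0.00). The testis variants fell most. Hist1h2ba was at 329, 240, 261 and 266 RPKM in het and 144, 153 and 106 in KO, and fell by 1.11 ± 0.10 (adjusted p = 2.00e-08). Hist1h2aa was at 699, 496, 580 and 664 in het and 412, 392 and 242 in KO, and fell by 0.89 ± 0.12 (adjusted p = 1.06e-05). Every KO library of both genes lay below every het library, and both calls held without any single library (adjusted p at most 5.01e-07 and 0.000193).

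Hist1h1e (H1.4) was at 53.2 to 71.8 RPKM in het and 43.8, 47.2 and 37.9 in KO and fell by 0.57 ± 0.11 (adjusted p = 0.000648). Hist3h2ba was at 29.9 to 34.2 in het and 21.3, 27.8 and 15.6 in KO and fell by 0.66 ± 0.15 (adjusted p = 0.00497). Hist1h3a and Hist1h1a fell by 0.40 ± 0.13 and 0.34 ± 0.11 with overlapping libraries. The third germ line member, Hist1h1t, had a mean of 7.36 RPKM in het and 5.48 in KO and did not pass (-0.50 ± 0.23, adjusted p = 0.16), and neither did the abundant Hist1h2ak, at 294 to 612 RPKM in het and 314 to 540 in KO.

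The members higher in KO included 2 H4 genes. Hist1h4d was at 143, 83.0, 126 and 104 RPKM in het and 177, 201 and 220 in KO, higher by 0.73 ± 0.12 (adjusted p = 0.000128). Hist2h4 was at 7.29 to 17.7 in het and 23.1, 25.8 and 19.2 in KO (0.73 ± 0.17, adjusted p = 0.00545, and 0.125 by DESeq2). Neither gene's groups overlapped. Hist2h2bb was higher by 0.70 ± 0.17 with overlap. Hist1h3i (0.94 ± 0.30, adjusted p = 0.0393) and Hist2h3b (1.78 ± 0.59, adjusted p = 0.0484), both H3 genes under 15 RPKM, lost their calls without each of 4 and 5 of the 7 libraries (adjusted p up to 0.240 and 0.196). Without KO replicate 3, 7 members in all were called.

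**Figure D3:**
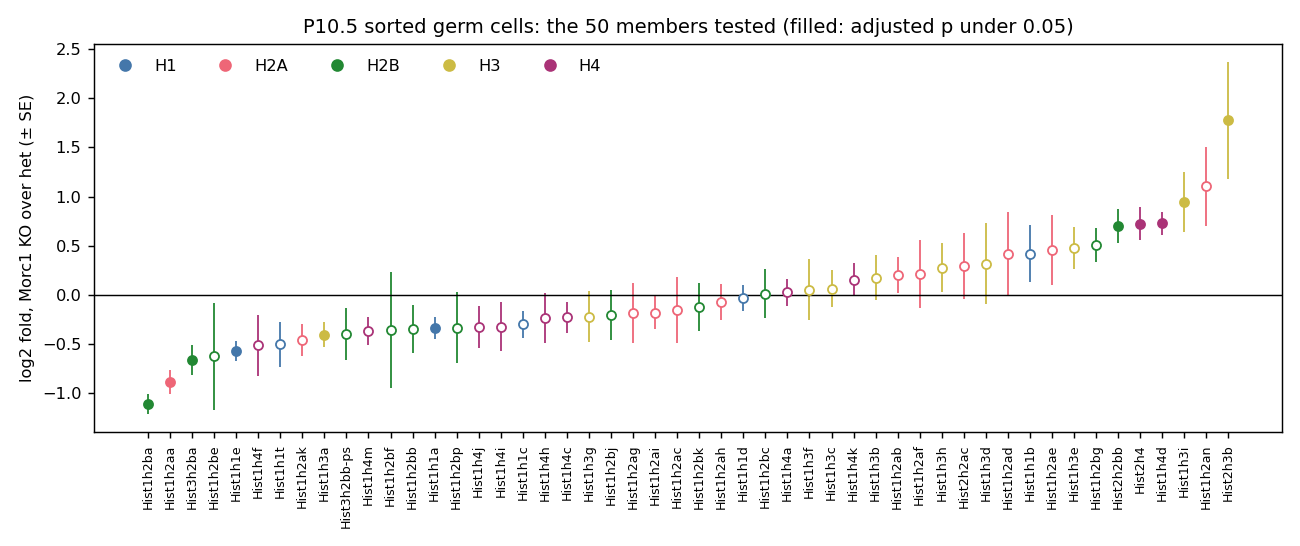
Log2 fold of Morc1 KO over het in P10.5 sorted germ cells for the 50 members tested, with bars of 1 SE from edgeR, coloured by class, and filled where adjusted p was under 0.05. Hist1h2ba and Hist1h2aa stand lowest at -1.11 and -0.89, and Hist1h4d and Hist2h4 lie on the opposite side at 0.73 each, below Hist2h3b at 1.78 with a wider bar.

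Other gene groups moved in the same libraries. Early meiosis genes were lower for 7 of 9 (median -0.49), their sum being 210–241 RPKM in het and 160–166 in KO, and 4 of 5 markers of undifferentiated spermatogonia were higher, with sums of 113–123 and 150.6–180.4. Of 5 markers of differentiating spermatogonia, Kit and Dmrtb1 were lower, the sums being 105–128 and 85.3–101, and of 5 germ cell markers Ddx4 was higher. Of 25 S phase genes 3 were lower (Rrm2, Pcna, Ccne2), of 14 mitosis genes 1 was higher, and of 15 genes for histone mRNA transcription and processing 0 were called, Slbp at 64.1 RPKM in het and 66.6 in KO. Of 9 histone chaperones, Chaf1b was higher and Asf1b lower. The 7 Sertoli markers summed to 69.2–118 RPKM in het and 46.7–92.6 in KO, 3 being lower. The part of these groups in the histone changes was not tested. In sorted cells as in whole testis, fewer cells of a type and less RNA per cell cannot be told apart.

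Whether the effect of Morc1 loss differed between P10.5 and E16.5 was tested as an interaction over 52 members. Hist1h2aa differed by -1.03 ± 0.24 (adjusted p = 0.0193), having been at 44.6 and 42.6 RPKM in het and 43.5 and 59.8 in KO at E16.5. Hist1h4d differed by 0.91 ± 0.20 (adjusted p = 0.0131), having been at 194 and 199 in het and 202 and 166 in KO. Among all genes 0.893% had a positive and 0.822% a negative interaction. Without E16.5 KO replicate 2 neither gene passed (adjusted p = 0.211 and 0.138), and without E16.5 het replicate 1 there were 4 calls. Hist1h2aa also missed without E16.5 het replicate 2 (0.0602) and by DESeq2 (0.0690).

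**Figure D4:**
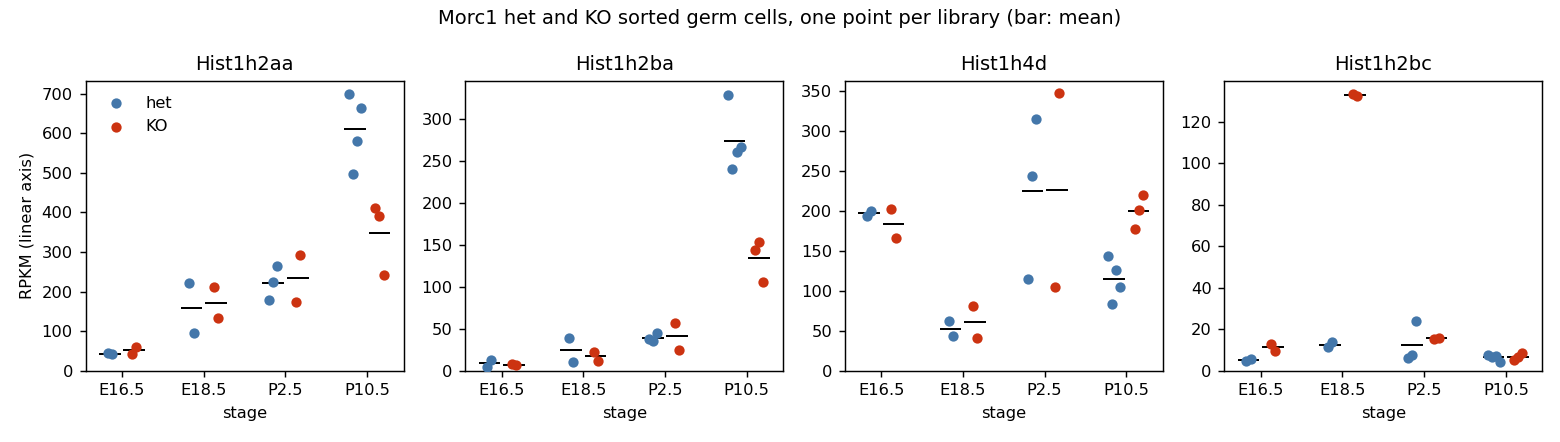
RPKM (linear axes) of Hist1h2aa, Hist1h2ba, Hist1h4d and Hist1h2bc in each Morc1 het and KO sorted germ cell library at the 4 stages, with bars at group means. Hist1h2aa and Hist1h2ba separate by genotype at P10.5, Hist1h4d does so in the other direction, and Hist1h2bc reaches 133 in both E18.5 KO libraries only.

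Set beside whole testis of the same age, nearly all members were far higher in the sorted cell libraries. Among 52 members at 1 RPKM or more in either P10.5 het group, 45 were 10-fold or more higher in germ cells, on the scale of log2(RPKM + 0.1), while 2.85% of 13374 genes at that level were. The member median was 6.34 and that of all genes -0.76. Hist1h2aa had a mean of 610 RPKM in sorted cells and 0.0784 in testis, and Hist1h4c 205 RPKM in sorted cells while listed at 0 in testis. The germ cell markers Ddx4 and Dazl were at 53.2 and 229 RPKM in sorted cells and at 47.0 and 129 in testis. The library totals behind these RPKM were 1.86 to 2.02 times the reads on genes in sorted cells and 1.14 times in testis. The sum over members was 114-fold higher by RPKM and 75.9-fold higher by CPM. No test was made, since the kits differ.

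A small set of members was instead visible in testis. Hist2h2be, an H2B gene with a gene model of 2618 exon bases and no stem-loop match, was at 0.0210 RPKM in sorted cells and 4.52 in testis, and was the 1 member 10-fold or more higher there (9.35% of all genes were). Hist3h2a, which Trim17 overlaps, was at 0.172 and 1.57. Hist1h2bc was at 6.40 and 5.15 RPKM, and Hist1h1c, with 1560 exon bases, at 48.8 and 8.44. Hist1h4i, among the 5 highest over all testis libraries, was at 19.5 and 0.530. The median log2 ratio was 3.53 for the 10 members with more than 1000 exon bases and 6.78 for the 42 shorter ones. It was 6.66 for the 47 with a stem-loop and 4.32 for 4 without one, which are descriptions over few genes.

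**Figure D5:**
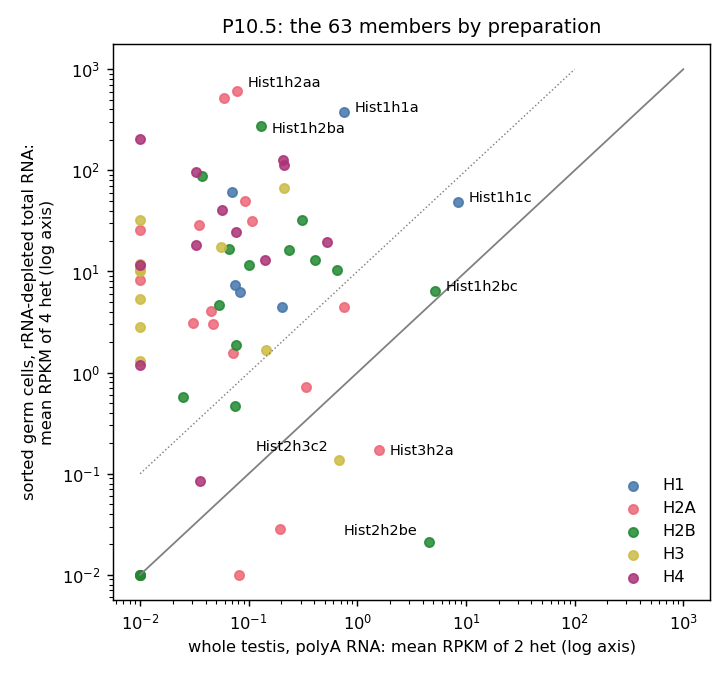
Mean RPKM (log axes, a value of 0 drawn at 0.01) of the 63 members at P10.5 in Morc1 het sorted germ cells (4 libraries) and Morc1 het whole testis (2 libraries), coloured by class, with a solid line at equal values and a dotted line at 10-fold. Most members lie above the dotted line, Hist1h2bc lies near equality and Hist2h2be and Hist3h2a lie below it. Hist2h3c2, Hist2h2aa2 and Hist1h2aj, under 1 RPKM in both groups, also lie below equality.

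Few members could therefore be tested in testis. In Morc1 testis at P10.5, 8 passed the filter, 2 were higher in KO and 1 lower, against 6.08% and 9.26% of all genes. Hist2h2be was at 4.59 RPKM in the WT, 4.40 and 4.64 in het, and 5.04, 6.84 and 6.87 in KO (0.48 ± 0.12, adjusted p = 0.0189). Hist2h2bb was at 0.571 to 0.649 in controls and 0.930, 0.825 and 1.05 in KO (0.62 ± 0.19, adjusted p = 0.0496), a call lost without any 1 of the 6 libraries (adjusted p 0.0613 to 0.201). Hist1h1a was at 0.695 to 0.908 in these controls and 0.329, 0.342 and 0.340 in KO and fell by 1.22 ± 0.28 (adjusted p = 0.0154). It had 22, 17 and 17 reads in the controls and 7, 8 and 11 in KO. Hist2h2be lost its call without het replicate 3, KO replicate 2 or KO replicate 3 (adjusted p up to 0.107), and Hist1h1a without the WT or KO replicate 3 (up to 0.0696). The preliminary controls, left out of this fit, were at 0.331 RPKM (WT) and 0.506 (het) for Hist1h1a, the WT lying within the KO range. With them added and a batch term, adjusted p was 0.0125 for Hist1h1a. It was 0.0596 with het controls alone and 0.0530 with the replicate block, and DESeq2 did not call this gene. Hist2h2bb missed the threshold with het controls alone, with the block (0.1406 and 0.1203) and by DESeq2 (0.178), and Hist2h2be passed in all 3 (0.0451, 0.0365 and 0.00169). Without them the groups did not overlap for these 3 genes, yet the 3 calls fell to 1 without the WT, without het replicate 3 or without KO replicate 2, and to 0 without KO replicate 3.

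At P14.5, 11 members were tested, with 3 higher in KO and 1 lower, against 14.8% and 20.1% of all genes. Hist1h2ba was at 1.68, 1.48 and 1.60 RPKM in het and 0.259, 0.452 and 0.587 in KO and fell by 1.86 ± 0.34 (adjusted p = 0.00369). This rests on 19, 18 and 17 reads in het and 3, 5 and 6 in KO, all from polyA RNA. Hist1h2bc was at 9.04, 8.28 and 8.38 in het and 15.1, 12.9 and 10.2 in KO (0.58 ± 0.15, adjusted p = 0.0161). Both held without each library in turn. Hist1h1c (0.63 ± 0.19) and Hist2h2bb (0.51 ± 0.16) were higher too. Hist1h1c lost its call without het replicate 2, het replicate 3 or KO replicate 1 (adjusted p up to 0.0907), and Hist2h2bb without any library but KO replicate 3 (up to 0.111). Without het replicate 2 or het replicate 3 there were 2 calls in place of 4. No member showed an interaction of genotype with age (11 tested, 1 by unadjusted p, 0 by DESeq2, against 0.915% and 5.25% of all genes).

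In Dnmt3l testis, 9 members were tested, with 2 higher and 2 lower in KO, against 24.9% and 29% of all genes. Hist2h2be was at 3.34, 3.37 and 3.91 RPKM in WT, 3.93, 3.22 and 4.98 in het, and 7.59, 5.22 and 6.20 in KO (0.78 ± 0.15, adjusted p = 0.000956). Hist1h2bj, an H2B gene, was at 1.30 to 2.24 in controls and 0.786, 0.628 and 0.454 in KO and fell by 1.39 ± 0.26 (adjusted p = 0.000872). Hist1h1a fell by 0.60 ± 0.20, from a mean of 1.13 to 0.721 RPKM, and lost its call without 4 of the 9 libraries (het replicate 3 and each KO; adjusted p up to 0.0673). Hist1h1c was higher by 0.49 ± 0.17 with overlap. The Dnmt3l and Morc1 effects were not shown to differ for any of 11 members (0 by unadjusted p under 0.05, 0 by DESeq2, against 8.14% and 9.45% of all genes). The libraries labelled Miwi2 KO gave 0 calls among 10 members (1 by unadjusted p, 0 by DESeq2, against 0.725% and 0.506%).

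Cell cycle and cell type genes moved widely in the mutant testes. In Morc1 KO at P10.5, 21 of 25 S phase genes, 13 of 14 mitosis genes, 9 of 9 early meiosis genes and 4 of 5 germ cell markers were lower, and 3 of 7 Sertoli markers were higher (sum 3487–3860 RPKM against 3028–3326 in controls). At P14.5, 17, 12, 9 and 5 of these genes were lower and 7 Sertoli markers higher. In Dnmt3l KO, 21 S phase, 12 mitosis, 9 early meiosis and 5 germ cell genes were lower, and 1 mitosis gene (Cdk1) and 5 Sertoli markers were higher. Slbp fell by 0.28 ± 0.05, 0.44 ± 0.07 and 0.27 ± 0.06 in these 3 comparisons (adjusted p = 0.00243, 0.00243 and 0.00373). The part of these changes in the values of the histone members was not tested.

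Between P10.5 and P14.5 the testis members shifted in both genotypes. The libraries of each age may also be a separate batch, which cannot be told apart from age. In het testis 6 of 11 tested members were higher and 2 lower (25.4% and 26% of all genes), and in KO testis 5 of 8 were higher and 1 lower (19.8% and 21.1%). Hist1h2ba went from 0.0786 and 0.180 RPKM to 1.68, 1.48 and 1.60 in het (3.53 ± 0.51, adjusted p = 0.000507), on 1 and 2 reads at P10.5, and the change was 4.14 without P10.5 het replicate 3. Hist2h2bb went from 0.647 and 0.649 to 3.05, 2.55 and 2.72 in het (2.07 ± 0.20, adjusted p = 6.58e-05) and from a mean of 0.936 to 3.91 RPKM in KO (2.05 ± 0.18, adjusted p = 3.28e-05). Hist2h2be went from 4.40 and 4.64 to 2.64, 2.54 and 2.13 in het and fell by 0.91 ± 0.13 (adjusted p = 0.000407), and in KO fell by 1.00 ± 0.15 (adjusted p = 0.000532). In het, Hist1h1c was also called lower, from 8.33 and 8.55 to 7.70, 6.06 and 4.79 RPKM, with a log2 change of -0.47. That call was lost without most single libraries. Hist1h2bc, Hist2h2ac, Hist2h3c2 and Hist2h4 were higher at P14.5 in both genotypes, by 0.72 to 1.61 in het and 0.90 to 2.40 in KO, although Hist2h2ac in KO lost its call without 5 of the 6 libraries (adjusted p up to 0.0787). In het, Hist2h4 lost it without either P10.5 library (up to 0.0860), and Hist2h2ac and Hist2h3c2 without P10.5 het replicate 3 (0.0845 and 0.0777). Without P10.5 het replicate 3, 4 members were called in het in place of 8. Early meiosis markers were higher at P14.5 for 9 of 9 genes and germ cell markers for 5 of 5 in each genotype, and pachytene markers for 6 of 6 in het and 3 of 4 tested in KO. Sertoli markers were lower for 5 of 7 in het and 4 of 7 in KO (1 and 2 higher), and stromal markers for 4 and 5 of 5. The part of these groups was not tested.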

How the data were processed

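RNA-seq tables of 47 libraries were used; the deposited tables give, per gene, the read counts and RPKM that the authors made. The authors trimmed reads to 50 bases, removed reads matching ribosomal RNA, kept unique alignments to mm9 with at most 2 mismatches, and counted them with HTSeq at default settings; the aligner for genes and the software versions were not given in the sources used here. The gene coordinates equal those of GENCODE M1 (mm9) for 98.6% of 26385 genes, and sequences were read from that build. Counts were tested with edgeR 4.0.16 (R 4.3.3; TMM, filterByExpr, quasi-likelihood F-test, Benjamini-Hochberg over all genes tested, threshold 0.05), and errors of log2 folds are standard errors. The deposited RPKM were used for levels. They refer to a library total 1.11 to 2.11 times the reads on genes, so sums were also computed as CPM on the reads on genes. Stage comparisons used het libraries, and P10.5 testis controls pooled het and WT without the preliminary libraries. Replicates are separate mice, and no replicate pair agreed within sampling noise. Values were named by rule: the 3 most abundant members of each class, the 3 germ line members, up to 5 members per direction without overlap in each comparison, and the 5 highest in testis. Other members named were chosen after their values were seen. The members and the 17 gene lists were chosen with earlier results of these data known. Of 143 list genes, 10 were not found, which left the list of non-polyadenylated RNAs empty. The fit was checked on simulated counts. Alternatives were DESeq2 1.42.0, RLE factors, factors without histone genes, no filter, leaving out each library, a replicate block, and other controls. The 4 deposited small RNA files were not used here.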

Additional observations from a re-analysis of the deposited data

Results flagged for a closer look

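Among the 4 P10.5 het germ cell libraries, 1 library stood apart from the other 3 in 5 of 42 values tested with Dixon's ratio, where chance marks about 5% of values. Replicate 2 was low for summed H2A reads, at 802 CPM against at most 1379, and for Hist1h2ak, at 294 RPKM. Hist1h2ak is part of that sum, so these 2 values are not independent. Replicate 2 was high for Hist2h2bb, at 13.1 RPKM, and was the 1 library with reads on Hist2h2be, at 0.0840 RPKM on 4 reads. With the other libraries at 0, the ratio for Hist2h2be is 1 whatever that value, so its flag is not informative. Replicate 1 was high for Hist1h3b, at 16.0 RPKM. The Morc1 effect differed between P10.5 and E16.5 by an interaction term for Hist1h2aa, at -1.03 on the log2 scale (edgeR, adjusted p = 0.0193), and for Hist1h4d, at 0.91 (adjusted p = 0.0131).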

How the results depend on the processing

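Of 188 recomputed counts and levels, 158 were scored as unchanged: counts within 1.5 times the value reported, and summed levels within their SD. The counts took higher and lower calls together, so this score could not show a change of direction. With no filter on low counts, 1 member was called in Morc1 KO at E16.5, 17 at P10.5 in germ cells, 8 in Dnmt3l KO and 8 in the interaction of P10.5 with E16.5. DESeq2 gave 1 call in Morc1 P10.5 testis and 1 in that interaction. Het controls alone gave 1 call in Morc1 P10.5 testis, and WT controls alone 2 in Dnmt3l testis. Summed CPM gave 7.61-fold for P10.5 over E16.5 and 75.9-fold for sorted cells over testis. The last was chosen after seeing the data. Correlations of same-numbered deviations ran from -0.428 to 0.348, which does not decide whether replicate numbers paired the samples. With 2 libraries in each group, values of same and different numbers are equal in size and opposite in sign. In Miwi2 they were 0.321 and -0.321. With the replicate block the calls numbered 1 at E16.5, 1 at E18.5, 0 at P2.5, 16 at P10.5 in germ cells, 1 and 4 in Morc1 testis at P10.5 and P14.5, 5 in Dnmt3l and 1 in Miwi2. Leaving out 1 library gave 0 to 1 calls at E16.5, 0 to 2 at E18.5, 7 to 13 at P10.5 in germ cells, 0 to 2 and 2 to 4 in Morc1 testis at P10.5 and P14.5, 5 to 10 from E16.5 to E18.5, 4 to 8 in control testis with age, and 0 to 4 in the interaction. Of the named members' recomputed tests, 491 kept their side of the threshold and 105 lost it, 90 of these on leaving out a library. Low counts limit which members could be tested: 8 to 11 of 63 in testis, although its libraries were deeper, since most members were near 0 there. The causes were not tested.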
